A study of Homo sapiens with 6 samples.

Results

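The genes described here are the hnRNP and SR splicing regulators, taken as every gene whose symbol begins HNRNP or SRSF, together with SYNCRIP, PTBP1, TRA2A, TRA2B and the kinases CLK1, CLK2, CLK3 and CLK4, with pseudogenes left out. By the platform annotation, 38 of 19775 genes with a probe set of 1 symbol were members, and they were read by 144 of 54613 non-control probe sets. They comprised 21 hnRNP genes (83 probe sets), 12 SR genes (52 probe sets), the 4 CLK kinases (8 probe sets) and 1 noncoding transcript, HNRNPD-DT (1 probe set). A further 18 probe sets carried several symbols with a member among them. SRSF2, SRSF9 and HNRNPH2 were read by such probe sets alone and were not analysed here. The study measured MM1.S cells, an established line from a patient with multiple myeloma, on 6 single-colour Affymetrix arrays. The labels name the cell line and the knockdown, but their free text also mentions early embryos and maternal transcripts, which does not match a cell line and was not used. In both groups the cells had been infected with lentivirus and sorted for GFP. The 3 control arrays came from cells with a pKLO GFP control vector carrying a control shRNA, and the 3 knockdown arrays from cells with a pKLO vector carrying an shRNA against beta-catenin. Cultures were grown in triplicate, and the labels describe neither separate infections nor the number of hairpins, so the p-values measure the spread between these cultures.

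hnRNPs and SR proteins bind nascent transcripts and decide together which exons are kept. SR proteins, which carry a domain rich in arginine and serine, mostly favour the use of a nearby splice site, and hnRNPs often oppose it. CLK kinases phosphorylate the arginine-serine domains of SR proteins and so control where those proteins sit in the nucleus. Many SR and hnRNP genes also limit their own output by making transcripts with an alternative exon or a retained intron that are degraded or held in the nucleus, so 1 gene can yield several kinds of RNA. Probe sets of the same gene can read different ones, and for this reason every probe set is counted below.

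Promoter sequence is shown for 4 genes on which the results turn. HNRNPA2B1 had the largest fall of any member probe set, SRSF1 and HNRNPD had the probe sets that parted most, and CLK1 had the largest rise among the brightest probe sets of the members. Each line gives the 250 bases before the annotated start, from RefSeq on GRCh38.p14, and capitals mark matches on either strand to CACGTG (the E-box bound by MYC and related factors), CCAAT (the CCAAT box) or CTTTGAT (a core of TCF/LEF sites, through which beta-catenin acts). CLK1 has 2 start sites in the table, and 1 is shown.
HNRNPA2B1, chr7:26200747-26200996, minus strand: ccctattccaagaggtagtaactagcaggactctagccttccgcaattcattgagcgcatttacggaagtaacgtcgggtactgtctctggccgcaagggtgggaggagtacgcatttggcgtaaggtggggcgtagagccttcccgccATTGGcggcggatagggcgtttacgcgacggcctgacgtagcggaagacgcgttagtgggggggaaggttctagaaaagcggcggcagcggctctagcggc
SRSF1, chr17:58007247-58007496, minus strand: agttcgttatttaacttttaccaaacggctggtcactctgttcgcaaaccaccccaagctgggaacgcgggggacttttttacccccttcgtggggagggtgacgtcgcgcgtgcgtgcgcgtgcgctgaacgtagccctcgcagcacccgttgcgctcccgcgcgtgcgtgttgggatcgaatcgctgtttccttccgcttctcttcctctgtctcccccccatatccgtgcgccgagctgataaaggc
HNRNPD, chr4:82373992-82374241, minus strand: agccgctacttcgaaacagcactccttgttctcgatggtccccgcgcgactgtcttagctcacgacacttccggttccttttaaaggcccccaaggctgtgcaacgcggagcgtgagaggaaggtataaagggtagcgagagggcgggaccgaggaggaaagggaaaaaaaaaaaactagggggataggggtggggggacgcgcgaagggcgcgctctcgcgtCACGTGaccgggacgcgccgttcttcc
CLK1, chr2:200864659-200864908, minus strand: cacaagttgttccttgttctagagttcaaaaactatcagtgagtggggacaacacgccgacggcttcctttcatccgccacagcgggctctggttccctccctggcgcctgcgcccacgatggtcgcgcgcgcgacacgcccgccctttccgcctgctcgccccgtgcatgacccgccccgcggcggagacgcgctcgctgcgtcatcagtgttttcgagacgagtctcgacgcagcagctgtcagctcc
The HNRNPA2B1 window held 1 CCAAT box and the HNRNPD window 1 E-box, while the SRSF1 and CLK1 windows held none of these letters. Of the 36 members with a promoter entry, 19 (52.8%) held CCAAT, against 37% of 27305 genes in the table. The E-box was found in 7 (19.4%), against 7.73% of genes. CTTTGAT was found in 1 member, SRSF8 (2.78%, against 2.75% of genes). Of the 22 members called lower below, 14 held CCAAT and 3 the E-box, and of the 12 other tested members with an entry, 5 and 4 did. TRA2A and HNRNPA1 had no entry. These matches describe the windows and were not tested.

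The values are log2 intensities per probe set with a floor at 4. Array medians were 5.44 to 5.50 in control and 5.50 to 5.54 in knockdown arrays. CTNNB1, which encodes beta-catenin, fell by 1.33 (limma, adjusted p = 2.27e-07 over all probe sets) on its brightest probe set, rose by 0.33 on another (limma, adjusted p = 0.0390) and was not called on the other one (−0.07). All 11 plasma cell markers lay above the filter on low values, with a mean level of 9.13 to 9.26 in control and 9.31 to 9.36 in knockdown arrays, and 4 were higher and 4 lower. Above the filter were 3 of 8 T and NK cell markers (mean level of the list 5.33 to 5.37 in control and 5.37 to 5.50 in knockdown arrays), 4 of 6 myeloid (5.46 to 5.53 and 5.51 to 5.67), 6 of 8 fibroblast (5.99 to 6.14 and 6.00 to 6.10) and 2 of 5 epithelial markers (5.32 to 5.57 and 5.32 to 5.39). Of these, 1 myeloid marker was called higher and 1 fibroblast marker lower. The probe sets for 18S ribosomal RNA lay between 8.58 and 10.15 among the controls and between 10.33 and 11.01 after knockdown (exact permutation p = 0.1, the smallest that 3 against 3 arrays allow). Their part in the results below was not tested. As a sign of RNA quality, the ACTB probe sets at the 3' end exceeded those at the 5' end by 0.67 on average among controls and by 0.58 after knockdown (exact permutation p = 0.7).

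Most of the splicing regulators were lower in the knockdown cultures. A gene was read by its brightest probe set and was tested if the mean of that probe set reached 5.49, the median over all probe sets. Of the 38 members, 36 passed this filter, and SRSF12 and HNRNPD-DT did not. Of the 36, 22 were called lower, 5 higher and 9 were not called (limma, Benjamini-Hochberg adjusted p below 0.05 over 12939 genes). Among all genes tested, 22.0% were called lower and 25.3% higher, and 47.3% were called either way. The median change of the tested members was −0.35 on the log2 scale, against 0.05 over all genes tested. The groups did not overlap for 30 of the 36 members, against 54.4% of all genes tested. Probe sets with a mean level of 8 or more were called more often (69.4% of 3114, against 35% of 18790 dimmer ones above the filter), and 50 of the 119 member probe sets above the filter were that bright. Of these, 36 of 50 member probe sets (72%) were called lower, against 36.1% of the bright probe sets of all genes. This brightness limit was chosen after the values were seen. Without control replicate 1, 8 members were called higher and 20 lower, against 3129 and 2520 of all 12939 genes tested.

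**Figure D1:**
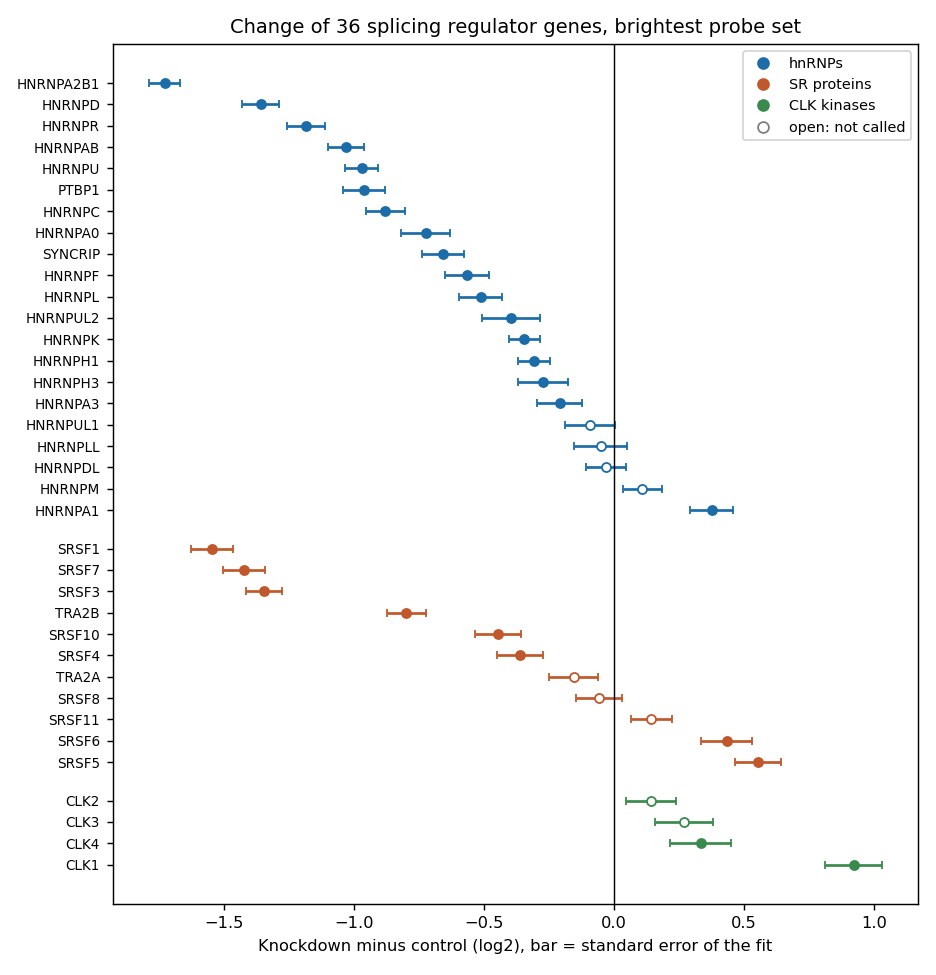
Change of each of the 36 tested genes (x axis, knockdown minus control on the log2 scale, brightest probe set), in groups of hnRNPs, SR proteins and CLK kinases. Filled circles passed the limma test, open circles did not, and bars are the standard error of the fit. HNRNPA2B1 (−1.73) and SRSF1 (−1.55) lie farthest left and CLK1 (0.92) farthest right.

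Of 21 hnRNP genes tested, 16 fell (76.2%), 1 rose (4.76%) and 4 were not called, with a median change of −0.51. Among all genes tested, 22.0% were lower and 25.3% higher. Over all 83 hnRNP probe sets, 44 were lower, 6 higher and 33 not called, with a median of −0.32. Among all probe sets, 9.95% were lower and 13.3% higher. HNRNPA2B1, which encodes an RNA-binding protein of splicing and RNA transport, read 11.48, 11.43 and 11.34 in the control and 9.66, 9.74 and 9.68 in the knockdown arrays. All 3 knockdown arrays lay far below the controls, and the change of −1.73 (SE 0.06), or 3.31-fold, exceeded the spread between cultures (limma, adjusted p = 7.08e-20). HNRNPD, whose protein AUF1 binds AU-rich elements and promotes mRNA decay, read 10.39, 10.34 and 10.27 in control and 8.93, 9.04 and 8.95 in knockdown arrays. The groups were well apart and the change was −1.36 (SE 0.07), or 2.56-fold (limma, adjusted p = 1.47e-15). HNRNPR, a close relative of SYNCRIP, read 10.08, 10.09 and 10.23 in control and 8.98, 8.97 and 8.90 in knockdown arrays, a change of −1.18 (2.27-fold; limma, adjusted p = 5.84e-14). HNRNPAB read 10.26, 10.21 and 10.18 in control and 9.16, 9.21 and 9.18 in knockdown arrays, a change of −1.03 (2.04-fold; limma, adjusted p = 3.33e-13). By the brightest probe set, these 4 were the hnRNP genes that fell at least 2-fold, and none of their arrays overlapped between groups. SYNCRIP, HNRNPC, HNRNPU and HNRNPM fell at least 2-fold on other probe sets (down to −1.70, −1.198, −1.10 and −1.08).

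HNRNPU, PTBP1 and HNRNPC followed. HNRNPU, a nuclear scaffold protein that binds RNA and chromatin, read 10.65, 10.68 and 10.60 in control and 9.66, 9.67 and 9.69 in knockdown arrays, a change of −0.97 (limma, adjusted p = 1.4e-13). PTBP1, the polypyrimidine tract-binding protein that represses many exons, read 9.84, 9.65 and 9.65 in control and 8.76, 8.80 and 8.69 in knockdown arrays, a change of −0.96 (limma, adjusted p = 3.34e-11). Its probe set 226491_x_at fell by 0.33 (limma, adjusted p = 0.0465 over all probe sets). Below the filter, 231158_x_at (−0.44) and 236819_at (0.06) were not called. HNRNPC, which binds uridine-rich tracts, read 9.90, 10.02 and 10.03 in control and 9.07, 9.19 and 9.05 in knockdown arrays, a change of −0.88 (limma, adjusted p = 5.01e-11). On the brightest probe set of each gene the knockdown arrays lay together below the controls. Smaller falls were called for HNRNPA0 (−0.72), SYNCRIP (−0.66), HNRNPF (−0.57), HNRNPL (−0.51), HNRNPUL2 (−0.40), HNRNPK (−0.35), HNRNPH1 (−0.31), HNRNPH3 (−0.27) and HNRNPA3 (−0.21), each the log2 change of the brightest probe set. Of these, HNRNPA3 lay closest to the threshold (limma, adjusted p = 0.0466), and its probe sets parted. With adjustment over all probe sets instead of genes, its brightest, 211929_at, was not called (limma, adjusted p = 0.0774). In that fit 211932_at fell by 0.93. Probe set 211930_at differed by 0.22 in the other direction and was not called either (limma, adjusted p = 0.0672). The change of 211930_at differed from that of the brightest by 0.43 (limma, adjusted p = 0.00698). Probe sets also parted in HNRNPUL2 and HNRNPA0, where 222264_at (0.21) and 229083_at (0.02) were not called. Their changes differed from those of the brightest by 0.60 and 0.75 (limma, adjusted p = 0.0122 and 0.00356). HNRNPH1 was called on 1 of its 4 probe sets, and its 201031_s_at differed by −0.03 (limma, adjusted p = 0.803). HNRNPUL1 (−0.09), HNRNPLL (−0.05), HNRNPDL (−0.03) and HNRNPM (0.11) were not called. HNRNPLL is known for its part in the splicing change of B cells that become plasma cells, and its arrays overlapped between groups.

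HNRNPA1, which opposes SR proteins at many exons, was the hnRNP gene that rose. Its brightest probe set read 9.42, 9.12 and 9.44 in control and 9.66, 9.76 and 9.68 in knockdown arrays, a rise of 0.37 (1.30-fold; limma, adjusted p = 3.64e-04). Its other 2 single-symbol probe sets gave 0.76 and 0.50 (limma, adjusted p = 6.55e-05 and 0.00228 over all probe sets), so all 3 rose. HNRNPA1 has many processed copies in the genome, and what each probe set reads of them was not analysed here. Of the 18 probe sets that carry several symbols with a member among them, 14 were called lower and 0 higher by limma (0 higher at an unadjusted p under 0.05 too), and their median was −0.82. Among all 54613 probe sets, 9.95% were called lower and 13.3% higher. The 18 were counted together and were not split by gene. HNRNPA1, SRSF5, SYNCRIP, TRA2A, HNRNPA3 and HNRNPD-DT lie outside the rule for genes described singly and were chosen after their values were seen. HNRNPDL, SRSF10, HNRNPH3, HNRNPL, HNRNPLL, HNRNPA0, HNRNPUL2, HNRNPH1, SRSF4 and SRSF8, which are also commented on, lie outside that rule too.

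Of 11 SR genes tested, 6 fell (54.5%), 2 rose (18.2%) and 3 were not called, with a median change of −0.36. Among all genes tested, 22.0% were lower and 25.3% higher. Over all 52 SR probe sets, 19 were lower, 9 higher and 24 not called, with a median of 0.003. Among all probe sets, 9.95% were lower and 13.3% higher. SRSF1, the founding SR protein and a known proto-oncogene, read 9.997, 9.87 and 9.86 in control and 8.32, 8.43 and 8.34 in knockdown arrays. Its brightest probe set thus stood 2.92-fold lower (−1.55, SE 0.08; limma, adjusted p = 7.92e-16). SRSF7, an SR protein that also serves mRNA export, read 9.93, 9.90 and 9.85 in control and 8.39, 8.60 and 8.41 in knockdown arrays, a change of −1.42 (2.68-fold; limma, adjusted p = 6.28e-15). SRSF3, another SR protein of splicing and mRNA export, read 10.57, 10.64 and 10.62 in control and 9.20, 9.38 and 9.21 in knockdown arrays, a change of −1.35 (2.54-fold; limma, adjusted p = 7.48e-16). In all 3 genes each knockdown array lay more than 1 log2 unit below each control array. TRA2B, which binds GA-rich exonic enhancers, read 9.87, 9.80 and 9.82 in control and 9.02, 9.12 and 8.95 in knockdown arrays, a change of −0.80 (1.74-fold; limma, adjusted p = 4.42e-10). SRSF10 and SRSF4 fell by 0.45 and 0.36 on the brightest probe set. For SRSF4 that was 1 of 5 probe sets. Above the filter, its 242837_at (0.18), 239512_at (0.13) and 239511_s_at (0.01) were not called. The changes of 242837_at and 239512_at differed from that of the brightest by 0.54 and 0.49 (limma, adjusted p = 0.00832 and 0.0401).

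SRSF5 and SRSF6 moved the other way. SRSF5 read 8.49, 8.32 and 8.29 in control and 8.90, 8.98 and 8.88 in knockdown arrays, a rise of 0.55 (1.47-fold; limma, adjusted p = 4.97e-06). SRSF6 read 8.14, 7.78 and 7.97 in control and 8.36, 8.40 and 8.41 in knockdown arrays, a rise of 0.43 (1.35-fold; limma, adjusted p = 5.39e-04). Neither gene's arrays overlapped between groups on these probe sets. SRSF11 (0.14), SRSF8 (−0.06) and TRA2A (−0.16) were not called, and TRA2A's arrays did not overlap between groups. Of the 4 SRSF8 probe sets 1, 213152_s_at, was called higher, at 0.29 (limma, adjusted p = 0.0327 over all probe sets). Its change differed from that of the brightest by 0.35 (limma, adjusted p = 0.0196).

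Of the 4 CLK kinases, 2 were called higher and 0 lower by limma (also 0 lower at an unadjusted p under 0.05), with 47.3% of all genes tested called either way, so the count for the kinases lay near the background. CLK1 read 6.70, 6.53 and 6.82 in control and 7.57, 7.74 and 7.51 in knockdown arrays. The groups were clearly apart, with a rise of 0.92 (SE 0.11), or 1.89-fold (limma, adjusted p = 3.17e-08), and CLK1 had 1 probe set. CLK4, a close relative of CLK1, read 6.53, 6.19 and 6.48 in control and 6.87, 6.78 and 6.55 in knockdown arrays, a rise of 0.33 (limma, adjusted p = 0.0205). Its groups lay close, with 0.0205 the adjusted p over genes and 0.0675 the one over all probe sets, and as a mean over its 4 probe sets the difference was 0.16, which limma did not call (adjusted p = 0.207), and read by its unmarked probe set 241403_at it was 0.034 (limma, adjusted p = 0.844). Without control replicate 2 CLK4 differed by 0.23, without knockdown replicate 1 by 0.27 and without knockdown replicate 2 by 0.31, none of them called (limma, adjusted p = 0.118, 0.117 and 0.0674). CLK3 read 6.87, 6.48 and 6.60 in control and 6.89, 6.88 and 6.98 in knockdown arrays, a difference of 0.27 that missed the threshold (limma, adjusted p = 0.0511) and passed it without control replicate 1 (0.38; limma, adjusted p = 0.0104). CLK2 read 7.75, 7.65 and 7.81 in control and 7.85, 7.95 and 7.84 in knockdown arrays, a difference of 0.14 (limma, adjusted p = 0.237). In both genes all knockdown arrays lay just above the controls.

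**Figure D2:**
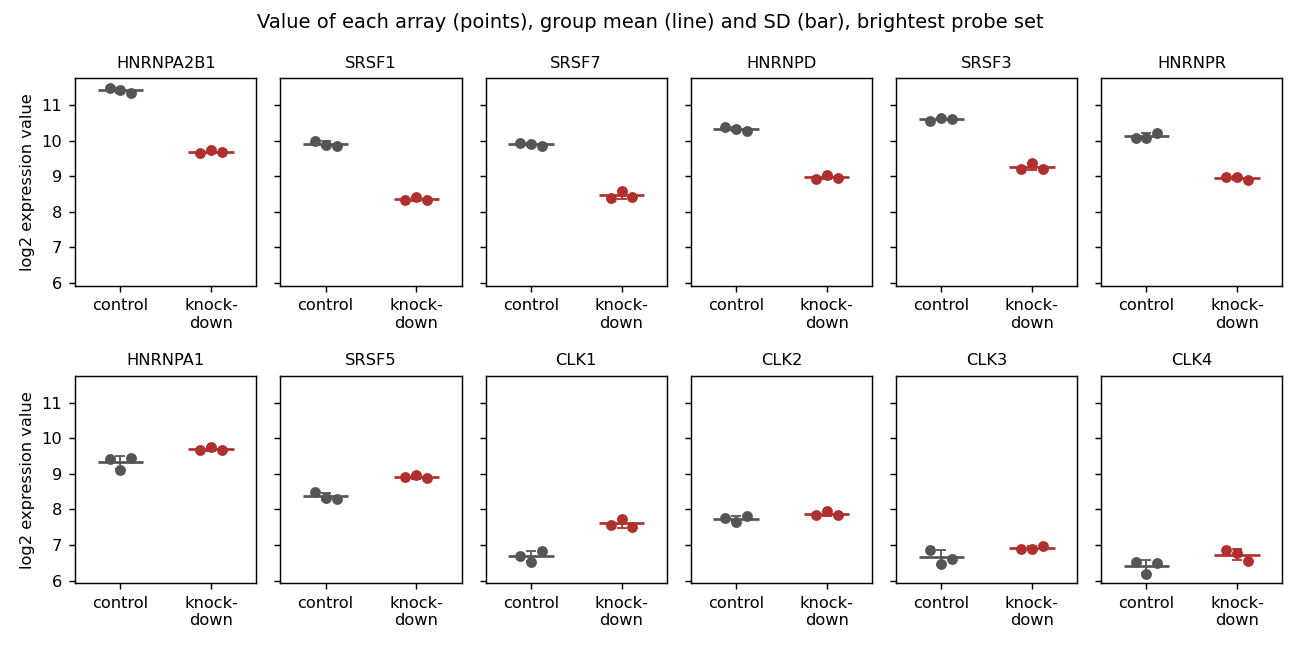
Log2 expression value (y axis, shared by all panels) of the brightest probe set of 12 genes in the 3 control and 3 knockdown arrays. Points are arrays, lines are group means and bars are the SD. The 6 genes in the upper row changed by −1.73 to −1.18, while HNRNPA1, SRSF5 and CLK1 in the lower row rose by 0.37, 0.55 and 0.92.

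Over all probe sets, 79 of the 144 member probe sets were called, 63 lower and 16 higher, where 9.95% of all probe sets were called lower, 13.3% higher and 23.2% either way (limma, Benjamini-Hochberg over 54613 probe sets). Of the 119 above the filter, 62 were lower and 16 higher. The shares among all 27307 probe sets above the filter were 17.1% lower and 21.2% higher. Of the 25 member probe sets below the filter, limma called 1 lower and 0 higher (1 higher at an unadjusted p under 0.05). There were 31 members with at least 2 probe sets above the filter. In 7 of them (22.6%) all of these were called the same way, against 20.2% of the 5414 genes with at least 2 such probe sets. In 5 (16.1%), SRSF1, HNRNPD, HNRNPM, HNRNPK and SRSF6, there were calls in both directions, against 2.57% of these genes. The members had a median of 3 such probe sets and the other genes 2, and the part of this in the counts was not tested. Whether probe sets of a gene changed by different amounts was tested on the difference of each probe set from the brightest one within each array. Of 83 such pairs of members, 44 differed, 33 with the other probe set changing upward relative to the brightest and 11 downward (limma, Benjamini-Hochberg over 8965 pairs). Among all pairs 27.5% differed, 13.8% upward and 13.7% downward. Pairs of a gene share its brightest probe set, and by that probe set 22 of the 36 tested members were called lower. The part of this in the direction of the pairs was not tested. The groups did not overlap for 55 of the 83 member pairs, against 42.7% of all pairs. A called pair was found in 22 of the 31 members (71%), against 34.5% of the 5414 genes.

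**Figure D3:**
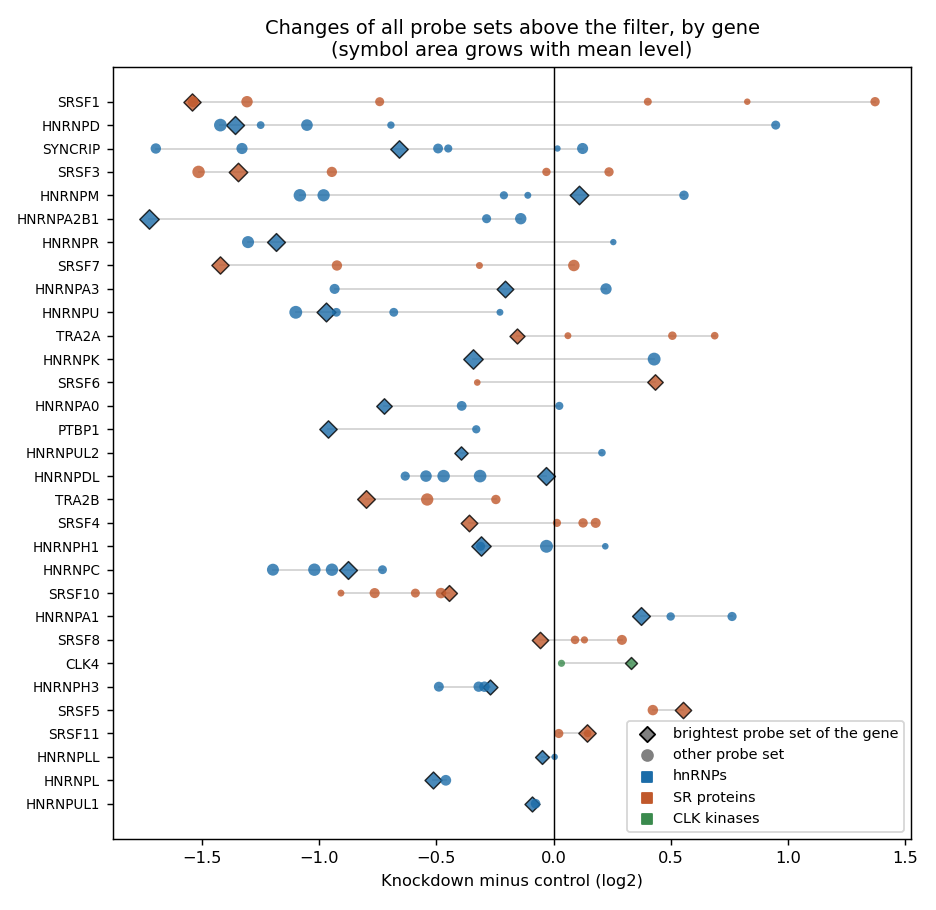
Change of every probe set above the filter (x axis, knockdown minus control on the log2 scale) for the 31 genes with at least 2 such probe sets, ordered by the width of the range. Diamonds mark the brightest probe set, circles the others, and the symbol area grows with the mean level. SRSF1 has the widest range, from −1.55 to 1.37, and HNRNPUL1 the narrowest.

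SRSF1 showed the widest split. Beside its brightest probe set, 211784_s_at, probe sets 208863_s_at, 201742_x_at and 227164_at fell by 1.54, 1.31 and 0.74. Probe set 226419_s_at read 6.61, 6.27 and 6.36 in control and 7.75, 7.81 and 7.80 in knockdown arrays, a rise of 1.37 (limma, adjusted p = 3.78e-07). Every knockdown array of this probe set was above every control array, the reverse of 211784_s_at. The difference between the changes of the pair was 2.92 (SE 0.10; limma, adjusted p = 1.09e-06). Probe set 229246_at read 4.98, 5.19 and 5.24 in control and 5.97, 6.05 and 5.88 in knockdown arrays, a rise of 0.83 and a difference of 2.37 from the brightest (limma, adjusted p = 1.1e-05). Probe set 239384_at read 6.07, 6.20 and 5.91 in control and 6.36, 6.51 and 6.51 in knockdown arrays, a rise of 0.40 (limma, adjusted p = 0.0167) and a difference of 1.95 (limma, adjusted p = 1.94e-05). The rise of 239384_at was not called without control replicate 3, knockdown replicate 2 or knockdown replicate 3 (0.33, 0.38 and 0.38; limma, adjusted p = 0.072, 0.0709 and 0.0558). Of the 8 SRSF1 probe sets 5 thus fell and 3 rose. Which part of the transcript each one reads was not analysed here.

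HNRNPD showed the same kind of split with 1 probe set on the rising side. Its probe sets 221481_x_at, 200073_s_at, 209330_s_at, 221480_at and 229129_at fell by 1.36, 1.42, 1.05, 1.25 and 0.69. Probe set 213359_at read 6.44, 6.31 and 6.55 in control and 7.41, 7.44 and 7.29 in knockdown arrays, a rise of 0.95 (limma, adjusted p = 8.85e-06). The groups were apart in the opposite order to the other 5, and its change differed from that of the brightest by 2.31 (limma, adjusted p = 7.39e-06). HNRNPD-DT, the noncoding transcript that starts divergently from HNRNPD, read 5.45, 5.27 and 5.79 in control and 5.34, 5.31 and 5.01 in knockdown arrays, below the filter on average and not called.

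HNRNPM, an hnRNP that binds GU-rich RNA, was not called by its brightest probe set, 233605_x_at, whose arrays overlapped between groups (10.11, 9.87 and 9.84 against 10.04, 9.94 and 10.17). Without control replicate 1 it was called higher at 0.19 (limma, adjusted p = 0.0225). Probe set 1555844_s_at, by contrast, read 10.09, 9.90 and 9.95 in control and 8.91, 8.98 and 8.79 in knockdown arrays, a change of −1.08 (limma, adjusted p = 1.62e-07), and 200072_s_at fell by 0.98. Probe set 1555843_at read 6.995, 6.79 and 6.92 in control and 7.599, 7.35 and 7.42 in knockdown arrays, a rise of 0.56 (limma, adjusted p = 0.00104). The call for HNRNPM thus depends on the probe set: averaged over its 7 probe sets, the gene was called lower at −0.28 (limma, adjusted p = 0.0153), and read by its brightest probe set without an _x_ or _s_ mark it was called higher at 0.56 (limma, adjusted p = 8.63e-05).

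HNRNPK, which binds cytidine-rich RNA, had 2 probe sets. The brighter, 200775_s_at, read 10.65, 10.79 and 10.70 in control and 10.34, 10.42 and 10.35 in knockdown arrays, while 200097_s_at read 9.50, 9.56 and 9.62 in control and 9.96, 10.03 and 9.98 in knockdown arrays. The first fell by 0.35 and the second rose by 0.43, and the pair differed by 0.78 (limma, adjusted p = 5.34e-04). Averaged, the HNRNPK probe sets differed by 0.042, which limma did not call (adjusted p = 0.587). For SRSF6, probe set 206108_s_at read 5.78, 5.73 and 5.81 in control and 5.35, 5.52 and 5.48 in knockdown arrays, a change of −0.33 (limma, adjusted p = 0.0438), against the rise of its brightest probe set. That fall was not called when any 1 of the 6 arrays was left out (limma, adjusted p = 0.0604 to 0.175), and the mean of both probe sets differed by 0.053, which limma did not call (adjusted p = 0.653).

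**Figure D4:**
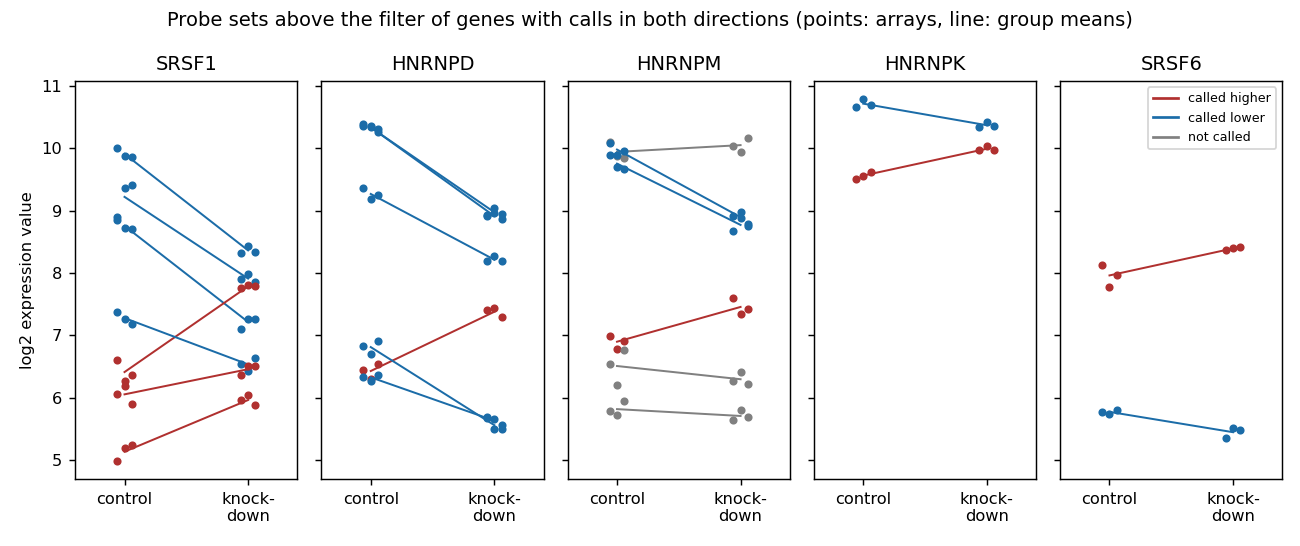
Log2 expression value (y axis) of each probe set above the filter for the 5 genes with calls in both directions. Points are arrays, lines join the group means, and colour gives the call (red higher, blue lower, grey not called). In SRSF1, 226419_s_at rose by 1.37 while 211784_s_at fell by 1.55.

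In other genes 1 or more probe sets fell steeply while another was not called. For HNRNPA2B1, 225932_s_at read 8.61, 8.59 and 8.64 in control and 8.54, 8.56 and 8.32 in knockdown arrays, a difference of −0.14, and 225107_at read 7.12, 6.92 and 7.14 in control and 6.79, 6.82 and 6.71 in knockdown arrays, a difference of −0.29. Neither was called (limma, adjusted p = 0.275 and 0.0534), although 225107_at passed with quantile normalization, cyclic loess and centring on array medians. Both changed less than the brightest probe set, by 1.59 and 1.44 (limma, adjusted p = 3.75e-05 and 6.03e-05). The fall of 3.31-fold in HNRNPA2B1 was therefore seen by 1 of its 4 probe sets.

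SRSF3 and SRSF7 were alike in this. In SRSF3, 208672_s_at, 202899_s_at and 208673_s_at fell by 1.35, 1.52 and 0.95, while 232392_at read 6.78, 7.14 and 6.90 in control and 7.15, 7.33 and 7.05 in knockdown arrays, which overlap, and differed from the brightest in its change by 1.58 (limma, adjusted p = 3.89e-05). In SRSF7, 214141_x_at and 201129_at fell by 1.42 and 0.92, while 213649_at read 8.57, 8.61 and 8.60 in control and 8.63, 8.79 and 8.62 in knockdown arrays, a difference of 0.087, and the pair differed by 1.51 (limma, adjusted p = 2.32e-05). HNRNPR had 2 probe sets that fell by 1.18 and 1.30 and another, 232004_at, that differed by 0.26 and was not called. SYNCRIP, which encodes hnRNP Q, ranged from −1.70 on 217834_s_at to 0.12 on 217833_at, with 5 of 7 probe sets lower. TRA2A, the relative of TRA2B, was not called by its brightest probe set, yet 229574_at rose by 0.69 and 213593_s_at by 0.51 (limma, adjusted p = 6.42e-04 and 0.018).

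As an alternative, each gene was read by its brightest probe set whose name lacks the _x_ and _s_ marks, where it had one. Several of the genes above then turned. In Affymetrix names these marks denote probes shared between transcripts or prone to cross-hybridise. Under that rule HNRNPD was called higher at 0.95, and SRSF3 (0.24), HNRNPR (0.26) and SRSF7 (0.087) were not called. HNRNPM was called higher at 0.56, and CLK4 lost its call at 0.034 (limma, adjusted p = 0.844). SRSF1 and HNRNPA2B1 were still called lower, at −0.74 and −0.29. The rule reads only the brightest unmarked probe set. Among the others above the filter, 221480_at and 229129_at of HNRNPD were called lower, at −1.25 and −0.69. So was 201129_at of SRSF7, at −0.92, while 237485_at of SRSF3 was not called (−0.03). In all, 18 of 33 members tested under this rule were called lower and 6 higher. Of all 11762 genes tested under it, 2481 were called lower and 2873 higher. PTBP1, CLK3 and HNRNPLL were not tested under it, because their unmarked probe sets lay below the filter. Of the 51 plain member probe sets above the filter 18 were lower (35.3%) and 7 higher (13.7%), with a median of −0.09, against 16.1% and 20.3% of plain probe sets of all genes. Of the 68 marked ones 44 were lower (64.7%) and 9 higher (13.2%), with a median of −0.46, against 21.6% and 23.1% of marked ones. Over all genes the plain and the marked probe sets had medians of 0.05 and 0.04. This split was made after the values were seen, and whether plain and marked members differ was not tested.

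In other members the called probe sets all went the same way. HNRNPC fell on 5 of 5 probe sets above the filter (−1.198 to −0.73), SRSF10, which represses splicing when dephosphorylated, on 5 of 5 (−0.91 to −0.45), HNRNPH3 on 4 of 4 (−0.49 to −0.27) and HNRNPL, which binds CA repeats, on 2 of 2 (−0.51 and −0.46). HNRNPU fell on 4 of 5, and SRSF5 rose on 2 of 2 above the filter (0.55 and 0.42). HNRNPDL, whose brightest probe set was not called, fell on the other 4 above the filter (−0.63 to −0.31). The sizes still differed within some of these genes, with 3 called pairs in HNRNPDL, 2 in SRSF10 and 1 in HNRNPU. HNRNPUL1, HNRNPLL and SRSF11 had no called probe set.

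Other genes of the pathway were taken from 5 lists that exclude the members. Of 12 tested genes that modify or carry SR proteins and hnRNPs, 8 were lower and 0 higher by limma. At an unadjusted p under 0.05, 1 was higher (DYRK1A, 0.22), and the median of the 12 was −0.31. The nuclear import receptors TNPO2 and TNPO1 fell by 0.90 and 0.70 and the arginine methyltransferase PRMT1 by 0.77. Of 33 genes on the list of SR-related proteins 15 were lower and 6 higher (median −0.10). Among them SRRT, SRRM1 and SCAF1 fell by 1.09, 1.002 and 0.91. Whether each gene on that list belongs to the class was not checked. Of 10 tested factors of early splice site recognition, from 13 listed, 8 were lower and 0 higher by limma. None was higher at an unadjusted p under 0.05, and the median was −0.50. SNRPA and SNRPC, proteins of the U1 particle, fell by 1.21 and 0.89, and U2AF1, which reads the 3' splice site, fell by 0.96.

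Of 57 other RNA-binding splicing regulators tested, from 67 listed, 24 were lower and 10 higher (median −0.15). Among them were TARDBP (−1.38), DAZAP1 (−1.37) and RBM14 (−1.199). For nonsense-mediated decay, the route that destroys transcripts with an early stop, 17 genes were listed and 11 tested. Of those 11, 6 were lower and 1 higher (median −0.37). The largest falls there were those of RBM8A (−1.38), MAGOHB (−1.34) and EIF4A3 (−1.18), which encode parts of the exon junction complex. These counts stand beside 22.0% lower and 25.3% higher over all genes tested, with a median of 0.05.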

How the data were processed

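RNA of 3 control and 3 beta-catenin shRNA cultures of MM1.S cells was measured on 6 arrays. The deposited table gives log2 values, 1 per probe set and array. Their floor at 4 has the form log2(signal + 16), read from the values and not stated, so folds are on that scale and come out too small for dim probe sets. MAS5 and PLIER appear, without roles, in the submitters' processing notes. No source used here gives the normalization. Values were used as deposited.

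Of 54675 probe sets, 62 controls stayed out. Genes were named from the platform annotation where a probe set had 1 symbol (41091 probe sets, 41037 of them found in RefSeq GRCh38.p14 by gene ID, 0 renamed). Groups were compared with limma 3.58.1 (lmFit, eBayes with intensity trend, none for pairs) in R 4.3.3, two-sided, adjusted over all genes, probe sets or pairs. Named members were the 12 largest called changes without overlap, the CLK kinases, genes with probe sets called both ways and the 8 largest called pairs. From each other list up to 3 called genes were named. The members and lists were chosen with earlier results of these data known. Code was tested on simulated data.

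Alternatives changed 1 choice at a time: scaling, filter, probe set rule, variance model, offset, replicate block, and leaving out each array. Arrays give no read depth, and their number limits the precision.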

Additional observations from a re-analysis of the deposited data

How the results depend on the processing

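The count of members called lower stayed between 18 and 22 and that of members called higher between 4 and 8 over every setting tried. Over all genes tested, 7615 to 19775 by setting, the counts ran from 2321 to 3316 lower and from 2344 to 3451 higher. The median change of the tested members, −0.35, became −0.41 after centring on array medians and −0.27 when probe sets lacking the _x_ and _s_ marks came first. Without 1 array at a time the count of members called higher ran from 4 to 8, the 8 being without control replicate 1. With the replicate number as a block, 5 members were higher and 20 lower, against 2897 and 2597 of all 12939 genes tested. Of the member probe sets 15 were then higher and 59 lower, and 39 member pairs differed. The shares over all probe sets and pairs under the block are not given here. Same-numbered arrays of the groups did not deviate together (r of deviations −0.07, −0.22 and −0.33), so the numbers are not taken as pairs. With the mean over probe sets HNRNPK turned to 0.042 and HNRNPM to −0.28. With unmarked probe sets first SRSF7 turned to 0.087, HNRNPD to 0.95, SRSF3 to 0.24 and HNRNPR to 0.26. These 2 rules read other probe sets, as described above. The CLK4 probe set 241403_at, not called at 0.03, turned to −0.029 under quantile normalization, −0.033 under cyclic loess and −0.021 under centring, and ran from −0.040 (without control replicate 1) to 0.10 (without control replicate 3) when 1 array was left out. Of the other comparisons of named genes, probe sets and pairs with their alternatives, 928 kept direction and call, 21 gained a call and 16 lost it. Changes of dim probe sets are limited by the offset of 16.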
